A study of Danio rerio with 4 samples.

Results

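The enzymes that supply deoxynucleotides for DNA synthesis were measured in retinal cells of adult zebrafish, in progenitors that arise after injury and in Muller glia, the main glial cell type of the retina, from uninjured eyes. Probes were selected from the scanner files by gene name, current or older, or by the current symbol of their RefSeq accession, for rrm1, rrm2, rrm2l, tk1, tyms, dhfr, dut and dctd. This gave 9 of the 21495 probes that are not controls, standing for 6 of the 8751 named genes. The names rrm2 and rrm2l lead to the same probe, since rrm2 is the older name of rrm2l, and no probe carried the name dctd. A further 9 probes have no gene name in the files but a description that names one of these enzymes. They were looked up after the values of the named probes were known and are given beside them as described probes.

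Progenitors were sorted by green fluorescence from retinas of fish of the tuba1a:gfp line (line number 1016), 4 days after needle injury (30 gauge). There were 2 such arrays, from fish of 7 and 8 months. Uninjured Muller glia were sorted likewise from gfap:gfp fish, again on 2 arrays, both from fish of 7 months. Each line is named for the promoter that drives its fluorescent protein, so line and injury differ together between the groups and cannot be told apart. The progenitor arrays are from fish of different ages, while whether the glia duplicates are separate pools of fish is not stated, so the spread between glia arrays may be technical.

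Ribonucleotide reductase makes deoxynucleotides from ribonucleotides, with a large R1 subunit (rrm1) and a small R2 subunit (rrm2l) whose transcript is known to accumulate in S phase. Thymidylate synthase (tyms) makes thymidylate from deoxyuridylate, dihydrofolate reductase (dhfr) restores the folate that this step uses up, and dUTPase (dut) removes dUTP while giving the deoxyuridylate. Deoxycytidylate deaminase (dctd) is another source of deoxyuridylate. Thymidine kinase 1 (tk1) is the cytosolic salvage enzyme that phosphorylates thymidine, and in mammalian cells it is made mainly in cells that replicate their DNA. Muller glia of the uninjured fish retina divide rarely, and after injury they give rise to dividing progenitors.

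Levels are given as the probe's signal in percent of the 75th percentile signal of its array, which lay at 4816 and 4899 on the progenitor arrays and at 4289 and 4455 on the glia arrays. Levels of different probes cannot be compared with each other. The share of spots well above background was 74.7% and 71.7% on progenitor arrays and 79.1% and 82.0% on glia arrays, and all 9 named probes were well above background on all 4 arrays with none saturated. Signals of the tested probes correlated at r = 0.998 between the progenitor arrays, at 0.999 between the glia arrays and at 0.969 to 0.970 between groups. The defining glial genes gfap, glula and fabp7a were well above background in both groups, with gfap (0.69) and fabp7a (1.95) higher in progenitors on the log2 scale and glula not called (-0.13). Summed signals of 5 glial markers were 26906 and 27421 percent of the 75th percentile in progenitors, against 20151 and 20413 percent in glia. Summed signals of 5 proliferation markers were 984 and 1005 percent of the 75th percentile in progenitors, against 343 and 339 percent in glia, but their members did not move alike. Of these 5, cdk1 (4.02), plk1 (4.22) and pcna (0.97) rose, mki67 fell (-0.43) and top2a did not pass (0.00). Over 9 microglia and leukocyte markers the sums were 3645 and 3407 percent in progenitors, against 1521 and 1525 percent in glia, with mpx at background in both groups. For 6 cone markers they were 26765 and 27899 percent in progenitors and 41650 and 40459 percent in glia. For 3 rod markers they were 14352 and 14867 percent in progenitors and 16867 and 16622 percent in glia. Over 4 erythrocyte markers they were 3273 and 3355 percent in progenitors and 6409 and 6336 percent in glia. A sum weighs the brightest probes of its list most and does not describe each member. Of the markers tested, 3 of 5 glial and 7 of 8 leukocyte genes were called higher. Lower calls were made for 5 of 6 cone, 3 of 3 rod and 3 of 4 erythrocyte genes. Among all named genes tested 27.5% were called higher and 40.4% lower. The part of other cell types in the differences below was not tested. In sorted bulk RNA more cells of a type and more RNA per cell cannot be told apart.

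Of the 6 genes, each taken by its brightest probe, 4 rose in progenitors, 1 fell and 1 did not pass the test (limma, adjusted p under 0.05). Among all 7080 named genes tested, 68% were called, 27.5% higher and 40.4% lower. At the level of probes 7 of 9 rose, 1 fell and 1 did not pass, where 65.6% of the 16596 probes tested were called, 27.1% higher and 38.5% lower. The median difference over the 6 genes was 1.25 on the log2 scale, against -0.11 over all genes tested. The genes rrm2l and tyms had the largest differences, tk1 was the gene that fell, and rrm1 was the one that did not pass, although its other 3 probes rose.

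**Figure D1:**
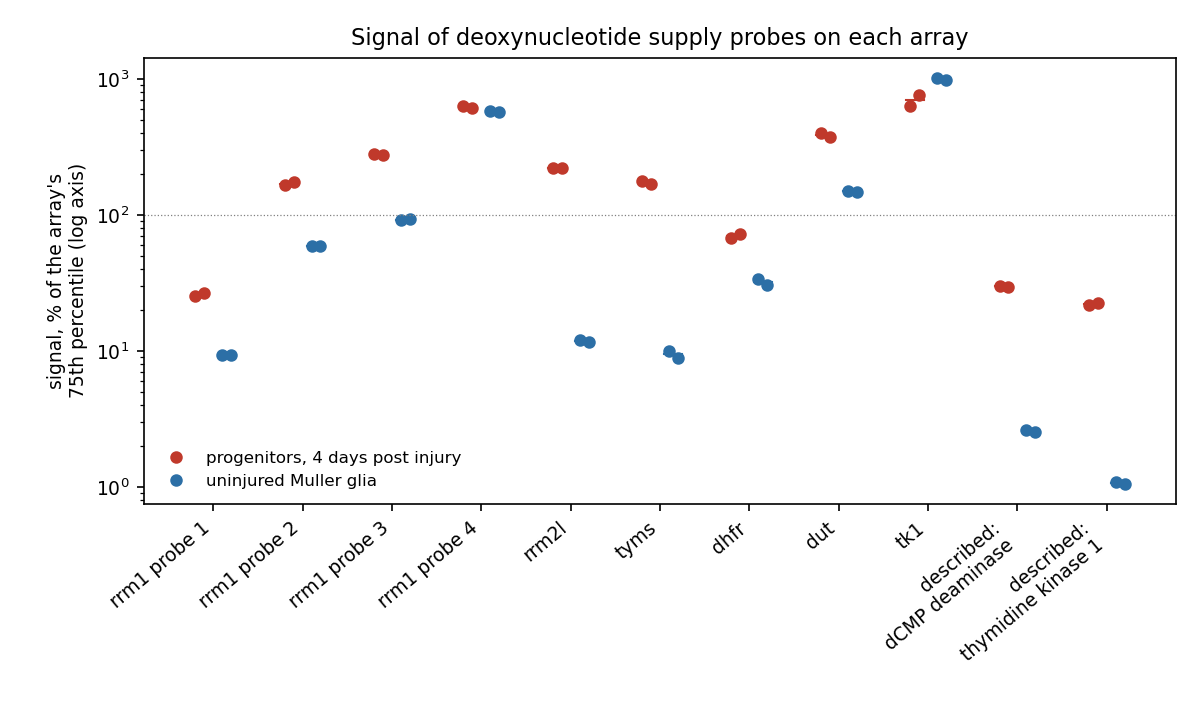
Signal of each named probe, and of the described thymidine kinase 1 and dCMP deaminase probes, in percent of the array's 75th percentile on a log axis. Points are arrays (2 progenitor arrays in red, 2 glia arrays in blue), short lines, mostly hidden behind the points, the geometric mean of each group, and rrm1 probes are numbered along the gene; rrm2l stood at 222% and 221% in progenitors and at 12.1% and 11.6% in glia.

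The small subunit gene rrm2l showed one of the widest gaps among the named probes. Its probe (danRer2, chromosome 20, 38142588 to 38142647, plus strand) gave 222% and 221% of the 75th percentile in progenitors, against 12.1% and 11.6% in glia. Both progenitor arrays lay above the 75th percentile and both glia arrays far below it. The difference was 4.23 ± 0.05 on the log2 scale (limma standard error, adjusted p = 5.4e-05), 18.8-fold higher. By the size of the difference rrm2l stood at rank 17 of the 7080 named genes.

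The reductase's R2 chain is also named in the description of 5 unnamed probes. At 38138536 to 38138595 on chromosome 20, upstream of the rrm2l probe by 3992 bases, the signal was 277% and 280% in progenitors, against 16.4% and 14.8% in glia, a difference of 4.16 ± 0.07 (adjusted p = 6.4e-05). A second described probe on that chromosome, at 38139639 to 38139698, was higher by 3.62 ± 0.08, and the third, whose coordinates stretch from 38136117 to 38137411, by 1.20 ± 0.11. The R2 probe on an unplaced sequence differed by 0.39 ± 0.05 (adjusted p = 0.0048), with 10.5% and 11.1% in progenitors, against 8.32% and 8.16% in glia. The calls of the last 3 were lost with normexp background correction, at 1.86, 0.42 and 0.05. The remaining R2 probe, placed on chromosome 13, was not well above background on any array and was not tested. Whether these probes read rrm2l or a related copy was not tested, since no probe sequence was used here.

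For the large subunit gene rrm1 there were 4 probes on chromosome 21, plus strand, and they did not move alike. The most upstream probe (21582922 to 21583394, a stretch of 473 bases for the probe in the files) gave 25.2% and 26.8% in progenitors, against 9.41% and 9.26% in glia. Next came the probe at 21589599 to 21589658, with 167% and 174% in progenitors, against 59.3% and 59.4% in glia. At 21590115 to 21590174 the signal was 280% and 274% in progenitors, against 91.4% and 92.8% in glia. These 3 probes were close to each other in their difference, at 1.48 ± 0.05, 1.52 ± 0.05 and 1.59 ± 0.04 (limma, adjusted p = 2.5e-04, 1.8e-04 and 1.5e-04), or 2.78-, 2.87- and 3.01-fold.

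The fourth rrm1 probe, 163 bases further downstream (21590338 to 21590397), was the brightest and stood nearly level. It gave 634% and 611% in progenitors, against 584% and 574% in glia, a difference of 0.10 ± 0.05 that did not pass (limma, adjusted p = 0.111). It passed with an intensity trend (adjusted p = 0.032) with quantile normalization, at 0.23, and with spike-in scaling, at 1.17, and it stood at -0.12 with median scaling. The mean of the 4 probes rose by 1.17 (adjusted p = 2.9e-04). This probe is named through an Ensembl transcript and the other 3 through the RefSeq transcript of rrm1. The probe described as the R1 chain lies 41 bases beyond it, at 21590439 to 21590498. It was not well above background in glia and at 1.02% and 1.30% in progenitors, with a bound of 3.57-fold higher there. It entered the fit only through the progenitor arrays. Its limma difference of 2.20 ± 0.18 rests on glia signals at background and is not used as a test, and it stood at -0.23 with normexp. Its 2 spots on an array differed by up to 1.21 on the log2 scale.

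Among the enzymes of thymidylate synthesis, tyms moved most. The tyms probe, for which the files hold no position, gave 178% and 169% in progenitors, against 9.95% and 8.91% in glia. The difference was 4.20 ± 0.07 (adjusted p = 7.2e-05), 18.4-fold, at rank 19 of the named genes. Both progenitor arrays stood above the 75th percentile and both glia arrays far below it, as for rrm2l.

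The other enzymes of this step rose less. For dhfr (chromosome 5, 19032430 to 19032489, minus strand) the signal was 68.0% and 72.4% in progenitors, against 33.5% and 30.7% in glia, a rise of 1.13 ± 0.07 (adjusted p = 8.5e-04) or 2.19-fold. The dut probe lies on a sequence with no chromosome in the files (70504354 to 70504413, minus strand). It gave 399% and 372% in progenitors, against 150% and 149% in glia, a rise of 1.37 ± 0.05 (adjusted p = 3.3e-04) or 2.58-fold. In both genes the gap between the 2 groups was wider than that between arrays of a group. The groups did not overlap at the rrm1 probe that did not pass either, so this says little by itself.

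Deoxycytidylate deaminase was seen only through a described probe on an unplaced sequence, whose description gives the human protein as the match. That probe gave 30.2% and 29.6% in progenitors, against 2.60% and 2.55% in glia. The difference was 3.54 ± 0.04 (limma, adjusted p = 5.4e-05), 11.6-fold, and 2.44 with normexp (adjusted p = 0.041). A probe described as matching a viral dihydrofolate reductase, on chromosome 18, differed by 0.32 ± 0.06 (adjusted p = 0.014), a call that ended with normexp (0.07), with median scaling (0.10), with quantile normalization (0.14) and without either progenitor array (0.32 and 0.33).

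**Figure D2:**
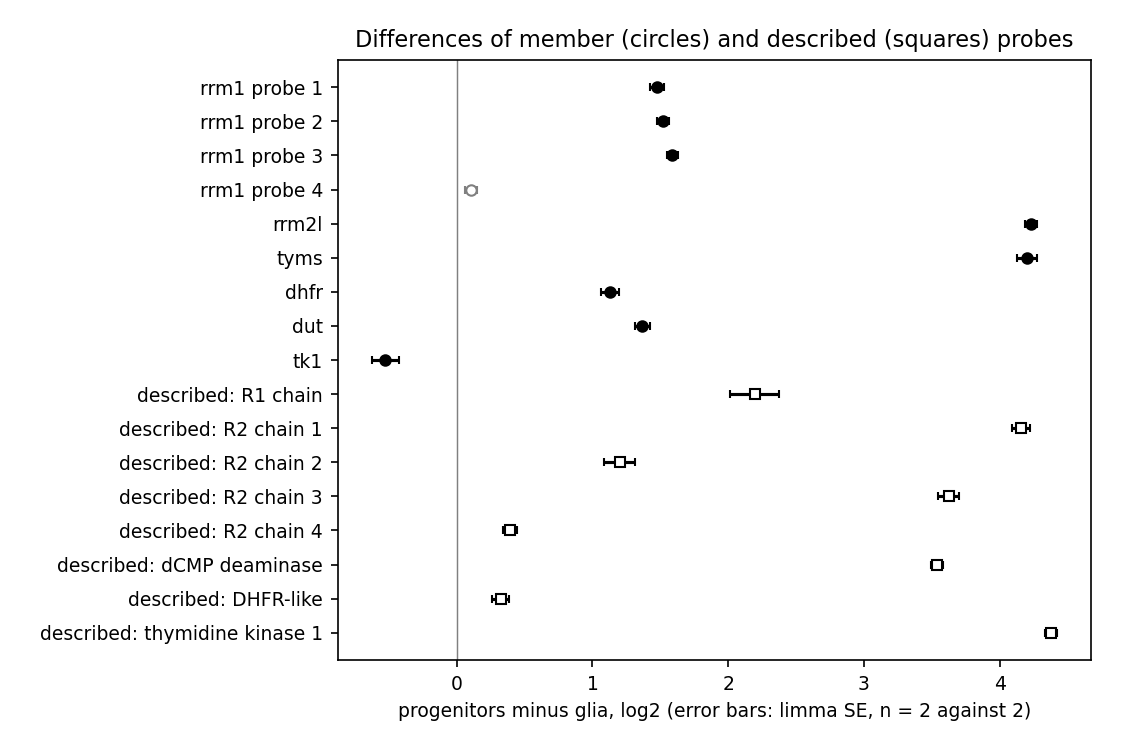
Difference of progenitors minus glia on the log2 scale for each tested probe, with limma standard errors (n = 2 against 2). Circles are named probes and squares described probes, and grey marks the rrm1 probe that did not pass. The described R1 chain probe, at 2.20, was not well above background in glia and is not used as a test. The tk1 probe stands at -0.53 and the described thymidine kinase 1 probe at 4.38.

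The salvage enzyme gene tk1 went the other way by the probe that carries its accession. On chromosome 20 at 67167 to 67224, minus strand, the signal was 637% and 759% in progenitors, against 1018% and 985% in glia. Both groups were bright, with the lower values in progenitors, but the 2 progenitor arrays lay further apart than the glia arrays. The tk1 difference was -0.53 ± 0.10 (limma, adjusted p = 0.014), 1.44-fold lower, and stood at rank 5946 of 7080. The call was lost with normexp (-0.50, adjusted p = 0.082) and without glia replicate 1 (-0.50, adjusted p = 0.060), and without glia replicate 2 it was narrow (-0.55, adjusted p = 0.049). With spike-in scaling tk1 turned to 0.54, while the median of all probes tested stood at 0.95.

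A described probe at the same locus moved in the opposite direction. Its description reads thymidine kinase 1, complete, and it lies on the same strand at 67017 to 67076, with 90 bases between the probes. The files list the same transcript cluster for both probes, but whether both read the same transcript was not tested, since no probe sequence was used here. It gave 21.9% and 22.5% in progenitors, against 1.08% and 1.06% in glia. The difference was 4.38 ± 0.04 (adjusted p = 5.4e-05), 20.8-fold higher, though with normexp it was 2.48 and did not pass (adjusted p = 0.071). The gap between the 2 thymidine kinase 1 probes was 4.91 on the log2 scale. Among 1880 named genes with several tested probes, the median spread between probes of a gene was 0.12, and 1 had a spread as wide as this pair.

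**Figure D3:**
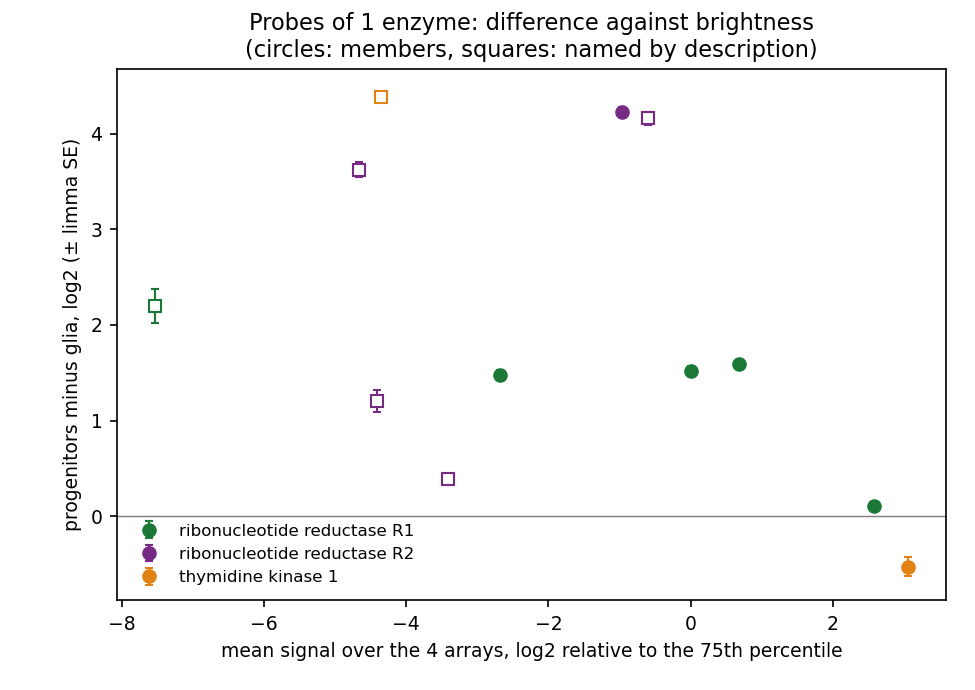
Difference of progenitors minus glia (log2, with limma standard errors) against the probe's mean signal over the 4 arrays (log2 relative to the 75th percentile), for probes of the R1 subunit, the R2 subunit and thymidine kinase 1. Circles are named and squares described probes. The brightest R1 probe stands at 0.10 and the brighter thymidine kinase 1 probe at -0.53, below the dimmer probes of the same enzymes. The described R1 probe rests on glia signals at background and is not used as a test.

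The direction of tk1 in these data differed with the probe read. Taken by the described probe, 5 of the 6 genes rose and 0 fell. By the brightest probe, which is the one that carries the accession, 4 rose and 1 fell. The brighter probe showed the smaller or opposite difference for both rrm1 and thymidine kinase 1. The brightest R2 probes, rrm2l (4.23) and the described probe at 4.16, had larger differences than the dimmer ones (3.62, 1.20 and 0.39). The calls of these dimmer probes were lost with normexp, and whether all R2 probes read rrm2l was not tested. The other 3 rrm1 probes were close to each other, at 1.48 ± 0.05, 1.52 ± 0.05 and 1.59 ± 0.04 from the dimmest to the brightest. The part of brightness in these differences was not tested. In 112 genes whose probes spread by at least 1 on the log2 scale the brightest probe had the smallest difference in size in 53 (47.3%). Of these 112 genes, 60 had only a pair of tested probes, where the brightest can readily have the smallest difference by chance. The rate expected by chance was not tested, so no conclusion on brightness is drawn from this count.

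The rises of rrm2l, tyms, dhfr, dut and the 3 concordant rrm1 probes passed in every alternative run. Over these settings rrm2l ranged from 3.89 with normexp to 5.29 with spike-in scaling. Spike-in controls were dimmer on progenitor arrays, with median signals of 8573 and 8574, against 15488 and 16793 on glia arrays. Scaling on them moved the median of all probes by 1.06 on the log2 scale, and scaling on the array median moved it by -0.22.

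**Figure D4:**
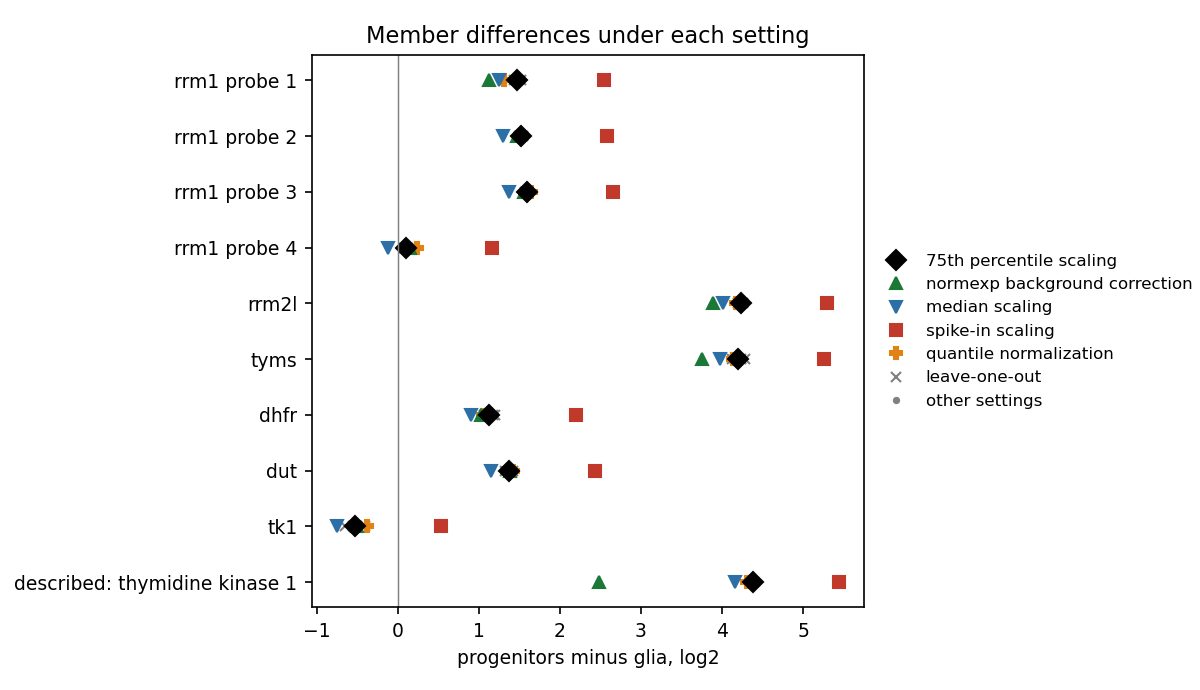
Difference of progenitors minus glia (log2) for each named probe and the described thymidine kinase 1 probe under each setting. Diamonds are the 75th percentile scaling, other symbols the alternatives, crosses fits that leave out 1 array; tk1 stands left of 0 except with spike-in scaling, at 0.54.

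Other genes of nucleotide metabolism were taken from 4 lists, with members left out. Of 56 genes tested by their brightest probe, 13 rose, 27 fell and 16 did not pass, where 27.5% and 40.4% of all genes were called higher and lower. In the list of deoxynucleotide kinases, salvage and breakdown, 4 of 27 rose and 15 fell, with a median of -0.19 that was 0.88 with spike-in scaling. The nucleotide-pool sanitizing hydrolase gene nudt1 rose by 1.13 ± 0.04, a call lost with normexp (0.82). The nucleoside diphosphate kinase gene nme2b.1 rose by 0.97 ± 0.04. Lower members were the guanylate kinase gene guk1b (-0.73 ± 0.04) and the purine nucleoside phosphorylase genes pnp5b (-0.70 ± 0.05, -0.84 with normexp, where it did not pass) and pnp6 (-0.45 ± 0.04).

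In the same list stood rrm2b, tk2 and dguok, chosen after their values were seen because they are counterparts of the members. The gene rrm2b encodes the R2-type subunit that in mammals serves resting cells and DNA repair. Its probes fell by 0.53 ± 0.06 and 0.61 ± 0.04 (limma, adjusted p = 0.0031 and 0.0011), and rrm2b stood at 197% and 188% in progenitors, against 285% and 269% in glia, by the brighter one. The mitochondrial kinase genes tk2 (-0.38 ± 0.04) and dguok (-0.25 ± 0.05) were lower too. Spike-in scaling adds 1.06 to every difference and takes all 3 genes above 0.

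The pyrimidine list, which held synthesis genes and the salvage kinase genes uck1, uck2a and uck2b, was mixed. In it 4 of 8 genes were higher and 3 lower, and the median of 0.19 turned to -0.03 with median scaling. The uridine-cytidine kinase genes uck2b and uck2a rose by 1.36 ± 0.04 and 1.02 ± 0.06, and the CTP synthase gene ctps1a by 0.41 ± 0.04. Their paralogs uck1 (-0.59 ± 0.05) and ctps1b (-0.43 ± 0.04) fell. The gene cad, which encodes the enzyme of the first steps, stood at -0.20 ± 0.05, a call lost with normexp (-0.21), without each of the 4 arrays in turn (-0.23 to -0.18) and with the replicate block.

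In purine synthesis 2 of 11 genes rose and 6 fell. Their median was -0.22, and 0.85 with spike-in scaling. These counts rest on the brightest probe of each gene. The gene prps1a did not pass by that probe, but its 3 probes ranged from -0.08 to 2.24 and 1 of them was called higher. For adsl and adss, counted as lower, 1 of 2 probes was called. The gene gart, whose product takes part in several early steps, rose by 0.93 ± 0.04, and the IMP dehydrogenase gene impdh1b by 0.85 ± 0.05, which was lost with normexp (0.06). The IMP dehydrogenase genes impdh2 (-0.75 ± 0.04) and impdh1a (-0.62 ± 0.04) and the adenylosuccinate synthase gene adss1 (-0.67 ± 0.07) were lower.

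The folate list had 3 of 10 genes higher and 3 lower, with a median of -0.07, which was 0.99 with spike-in scaling, and a mean of 0.07, which was -0.15 with median scaling. The one-carbon enzyme genes mthfd1b (1.42 ± 0.05) and shmt1 (1.00 ± 0.05), whose mammalian counterparts are cytosolic, rose. So did the folate transporter gene slc46a1 (0.79 ± 0.13), lost with normexp (0.33) and without progenitor replicate 2 (0.77). The genes mthfd2 (-0.95 ± 0.04) and mthfd2l (-0.88 ± 0.08), whose mammalian counterparts are mitochondrial, fell, as did the folate polyglutamate synthase gene fpgs (-0.49 ± 0.04). The 12 lower genes named by adjusted p from these lists stood between 0.11 and 0.86 with spike-in scaling. Replication fork genes, by comparison, were higher in 22 of 22 tested, out of 38 listed, between 0.17 and 4.02, with a median of 1.55. Among all named genes tested 27.5% were called higher and 40.4% lower. Of the 22 replication fork genes, 17 passed with normexp, 20 with median scaling and 21 with quantile normalization.

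**Figure D5:**
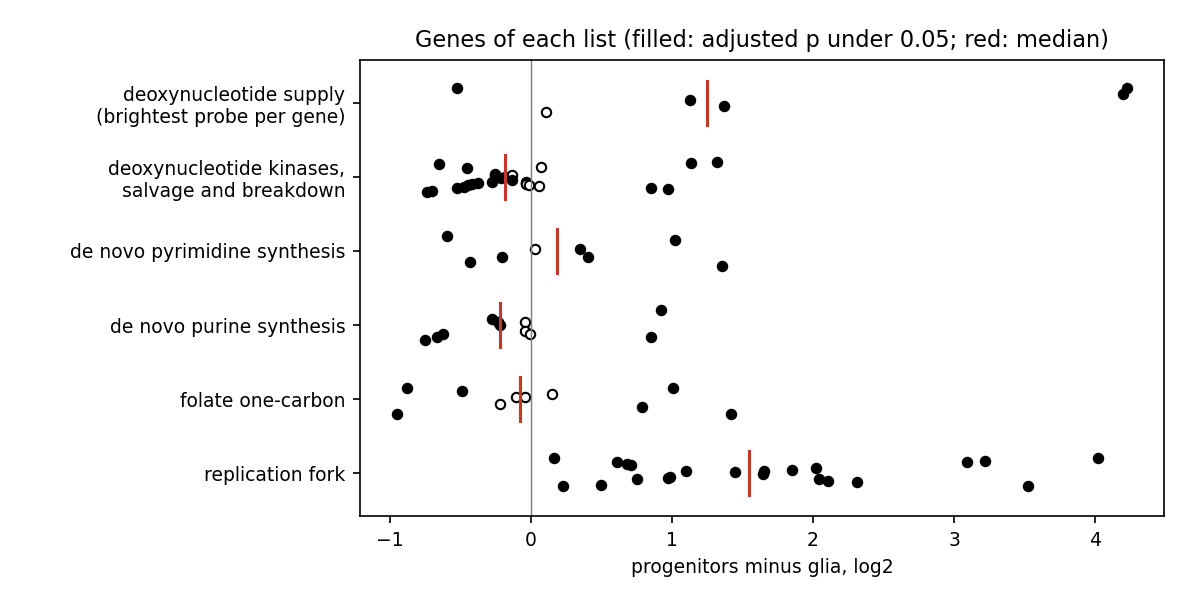
Difference of progenitors minus glia (log2) for each gene of 6 lists, each gene by its brightest probe. Filled points passed an adjusted p of 0.05, open points did not, and red lines are medians, at 1.25 for the deoxynucleotide supply enzymes and 1.55 for the replication fork.

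The genes nearest to rrm2l in pattern were sought among 5795 other named genes well above background on all arrays. Likeness was the Euclidean distance over the 4 arrays between scaled log2 values, each centred on the gene's mean. The nearest were plk1 (distance 0.05), tmsb (0.08), tyms (0.09), f5 (0.15) and foxn4 (0.17), with differences from 4.09 to 4.31. For tk1 by its named probe they were fbln5 (0.03), stx2a (0.04), gria1b (0.05), cldn10a (0.06) and rabggtb (0.06), with differences from -0.52 to -0.48. With groups of 2 arrays, likeness mostly reflects the size of the difference between groups.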

How the data were processed

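All 4 arrays (single-colour, Agilent design 015064, 0.7 µg of RNA each per the labels' protocols) lay on 1 slide with 1 scan. The deposited spot intensity is linear and was corrected for background on each array, with Feature Extraction 9.5.3.1 named in the headers and 9.1 in the submitters' processing notes. In the value table the authors deposited, 100% of values equalled a spot's background-subtracted intensity within a relative tolerance of 0.001.

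Control spots (1417 per array) and outlier spots (0 to 23) were left out. Log2 intensity minus the array's 75th percentile was averaged over the 2 spots of a probe. The 16596 of 21495 probes that were well above background on both arrays of a group were fitted with limma 3.58.1 in R 4.3.3, progenitors minus glia, with Benjamini-Hochberg adjustment over all of them and a threshold of 0.05. Errors are limma standard errors. The brightest probe stood for a gene. For the probe at background in glia, the bound used, on each glia array, its own signal or that of the dimmest probe above background, whichever was higher. Names came from the files and the RefSeq table of GRCz12tu, and 9583 probes had none. The fit was also run on simulated data with independent noise on each array. That run cannot show how the fit behaves if duplicates are technical, and no conclusion is drawn from it.

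Alternatives were normexp, median, quantile and spike-in scaling, other filters, an intensity trend, the mean of probes, the deposited table, a replicate block and leaving out each array. Members, lists and tests were chosen with earlier results of these data known. The text names all member probes, up to 3 genes per list and direction by adjusted p, and the 5 genes nearest to rrm2l and to tk1. A gene that this rule names is not reported here. Described probes, rrm2b, tk2, dguok, prps1a, adsl and adss fall outside that rule and were picked with their values in view. The number of arrays limits the precision.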

Additional observations from a re-analysis of the deposited data

How the results depend on the processing

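The rrm2l difference (3.89 to 5.29) kept its direction and side of the threshold under every alternative run. With all 4 arrays the count of members higher was 4 to 6. It was 5 with quantile normalization, an intensity trend, the mean of probes and tk1 taken by the described probe. With spike-in scaling it was 6, since rrm1 and tk1 then counted as higher. Of all called probes 97.7% were higher with spike-in scaling, against 41.3% with percentile scaling and 23.6% with median scaling. Counts with spike-in scaling, for members and for the lists below, therefore do not set these genes apart from other probes. The count of members lower was 1, and 0 with normexp, with spike-in scaling, without glia replicate 1 and with tk1 taken by the described probe, an alternative chosen after seeing the data. The tk1 difference of -0.53 was -0.50 with normexp and -0.50 without glia replicate 1, neither passing, 0.54 with spike-in scaling and 4.38 by the described probe; leaving out 1 array at a time gave -0.65 to -0.40, and counts of members lower of 0 to 1. With the replicate block tk1 stood at -0.53 (limma, adjusted p = 0.027) and rrm2l at 4.23; same-numbered arrays deviated together at r = 0.058, and cad lost its call. Counts over the 4 nucleotide lists, 13 higher and 27 lower, were 9 and 15 with normexp, 54 and 0 with spike-in scaling, 12 and 39 with median scaling and 13 and 24 with the replicate block; leaving out 1 array gave 12 to 13 higher and 18 to 20 lower.

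Spike-in scaling turned the named lower genes to guk1b 0.33, pnp5b 0.36, pnp6 0.61, uck1 0.47, ctps1b 0.63, cad 0.86, impdh2 0.31, impdh1a 0.44, adss1 0.39, mthfd2 0.11, fpgs 0.58 and mthfd2l 0.19, and those nearest tk1 to fbln5 0.55, stx2a 0.55, gria1b 0.56, cldn10a 0.58 and rabggtb 0.56. It scales every probe by a constant per array. The R1 described probe was -0.23 with normexp; the cause was not tested. Leaving out an array of a pair assumes that the lone array varies like the other group. Dim probes, among them the described thymidine kinase 1 probe in glia at 1.08% and 1.06%, are limited by signal over background.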
